A study of Homo sapiens with 9 samples.

Results

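The genes described here make up the unfolded protein response and the ATF4 stress response. They comprise 38 named genes, all of which were found among the 58174 genes in the expression tables. By role, 4 are sensor-arm genes, 6 are ATF4 factors and 12 are ATF4 targets. The others are 13 chaperones of the endoplasmic reticulum (ER) and 3 genes of ER degradation. Sensor-arm genes comprise the sensors ERN1, EIF2AK3 and ATF6, together with XBP1, whose mRNA is spliced downstream of a sensor. RNA was sequenced from ES-2 cells, a line derived from an ovarian cancer, grown in DMEM with 10% FBS and harvested 72 h after transfection with siRNA. Cells received a control siRNA (siC), siRNAs against IGF2BP1 (siIGF2BP1), an RNA-binding protein also named IMP1, or siRNAs against SRF (siSRF), a transcription factor, with 3 libraries in each group. Total RNA was depleted of ribosomal RNA before library preparation. Each knockdown was done with a single siRNA pool, so an effect of the pool itself and of the loss of its target cannot be told apart. Between 6421764 and 9416175 reads per library were assigned to genes. Expression is given as FPKM, the number of fragments scaled by gene length and library size, which allows levels to be compared between genes.

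The unfolded protein response starts when unfolded proteins gather in the ER and activate the sensors IRE1 (encoded by ERN1), PERK (EIF2AK3) and ATF6. IRE1 splices the XBP1 mRNA, ATF6 is cleaved to a transcription factor, and PERK phosphorylates the translation factor eIF2, which lowers protein synthesis overall while favouring translation of the ATF4 mRNA. ATF4 switches on genes of amino acid supply and feedback, also when amino acids run short, whereas XBP1 and ATF6 drive ER chaperones and degradation. Gene-level FPKM show neither XBP1 splicing nor ATF4 translation, and no protein was measured here.

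The targeted mRNAs were examined before any other gene. IGF2BP1 stood at 12.8, 13.5 and 12.1 FPKM in siC, 4.18, 4.14 and 4.02 FPKM in siIGF2BP1 and 13.7, 14.6 and 14.4 FPKM in siSRF. All 3 siIGF2BP1 libraries lay below every other library, and the log2 fold change against siC was -1.61 ± 0.07 (adjusted p = 0.000141). SRF stood at 13.6, 14.1 and 16.0 FPKM in siC, 5.80, 5.42 and 6.80 FPKM in siIGF2BP1 and 1.63, 1.36 and 1.42 FPKM in siSRF. The siSRF libraries were lowest and the siIGF2BP1 libraries lay between them and siC without overlap, with a log2 fold change of -3.22 ± 0.11 (adjusted p = 6.07e-05) in siSRF and -1.26 ± 0.11 (adjusted p = 0.00111) in siIGF2BP1. SRF mRNA was lower in both knockdowns, and whether its level bears on the stress genes in siIGF2BP1 was not tested. Fold changes and p-values throughout are from limma on log2(FPKM + 0.1), fitted over all genes averaging 0.1 FPKM or more and adjusted over all of them, ± gives the SE, and a gene was called at an adjusted p of at most 0.01. A gene not called may still have changed. The pseudocount of 0.1 makes the fold changes of low genes smaller than the ratios of their FPKM.

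Of 10 genes listed as markers of epithelial or ovarian lines, 7 had a mean of at least 0.1 FPKM. VIM was the most abundant, with 1065, 1046 and 1055 FPKM in siC, 919, 839 and 889.8 FPKM in siIGF2BP1 and 837, 886 and 838 FPKM in siSRF. It was called lower in siSRF, with log2 fold changes of -0.26 in siIGF2BP1 and -0.31 in siSRF. KRT7 stood at 97.5, 106 and 100.2 FPKM in siC, 158, 145 and 153 FPKM in siIGF2BP1 and 129, 128 and 123 FPKM in siSRF and was called higher in both knockdowns, at 0.59 and 0.33. KRT8 and CDH2 were called higher in siIGF2BP1, at 0.55 and 0.66, with 0.19 and 0.23 in siSRF, and KRT18 was called higher in siSRF, at 0.91, with -0.07 in siIGF2BP1. These markers moved with the groups in different directions, and their part in the results was not tested. EPCAM, KRT19 and CDH1 were at or near 0 in every library and PAX8 did not exceed 0.262 FPKM. WT1 was at most 0.198 FPKM. Among 10 markers of blood, endothelium, liver, islet, glia and heart muscle, 5 were at 0 in all 9 libraries, with PECAM1 the most abundant over all 9 libraries and CD14 in siIGF2BP1, where their means were 0.325 and 0.539 FPKM. The whole list summed to 0.466, 0.564 and 0.292 FPKM in siC, 0.919, 1.25 and 0.502 FPKM in siIGF2BP1 and 0.176, 0.333 and 0.193 FPKM in siSRF, all close to 0.

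All 38 members passed the filter on low values in both comparisons. Upon IGF2BP1 depletion 8 of them were called lower and 1 was called higher, against 3.57% of 22292 genes called lower and 3.55% called higher. Upon SRF depletion 14 members were called lower and 3 higher, against 5.34% of 21857 genes called lower and 6.85% called higher. Well expressed genes are called more often: among genes averaging 1 FPKM or more the shares called lower and higher were 5.50% and 5.21% in siIGF2BP1 and 7.98% and 10.5% in siSRF. The 8 and 14 members called lower are 21.1% and 36.8% of the 38, whereas the 1 and 3 called higher are 2.63% and 7.89%, near the shares of all genes. Members and gene lists were chosen with earlier results of these data known, so a difference from those shares is not a test of them. TRIB3, CHAC1, ASNS, SESN2, SHMT2 and HSPA5 were called lower in both knockdowns, and since both comparisons use the same 3 siC libraries these are not independent observations. With trends along GC content and gene length taken out, ASNS and CHAC1 kept both calls, TRIB3 lost both, SESN2 and SHMT2 lost that in siSRF and HSPA5 lost that in siIGF2BP1. With limma-voom on the reads recovered from FPKM, 12 members were called lower and 3 higher in siIGF2BP1, against 8.48% and 8.59% of all genes, and 20 lower and 5 higher in siSRF, against 10.7% and 12.7%. With each library left out in turn, 3 to 5 members in siIGF2BP1 and 4 to 7 in siSRF were called lower, and 0 to 1 and 2 to 3 higher, so many of the lower calls were lost with fewer libraries in the fit. In bulk RNA, fewer cells with a transcript and less of it per cell cannot be told apart. Nothing states that the 3 libraries of a group came from separate cultures, so the p-values measure the spread between these libraries only. With the replicate number as a block in limma, 0 members in siIGF2BP1 and 2 in siSRF were called lower and 0 and 2 were called higher, and 91 and 501 genes were called in all. In siSRF lower calls thus did not outnumber higher calls among the members with the block. The 4 were PHGDH, HYOU1, ATF5 and PPP1R15A.

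**Figure D1:**
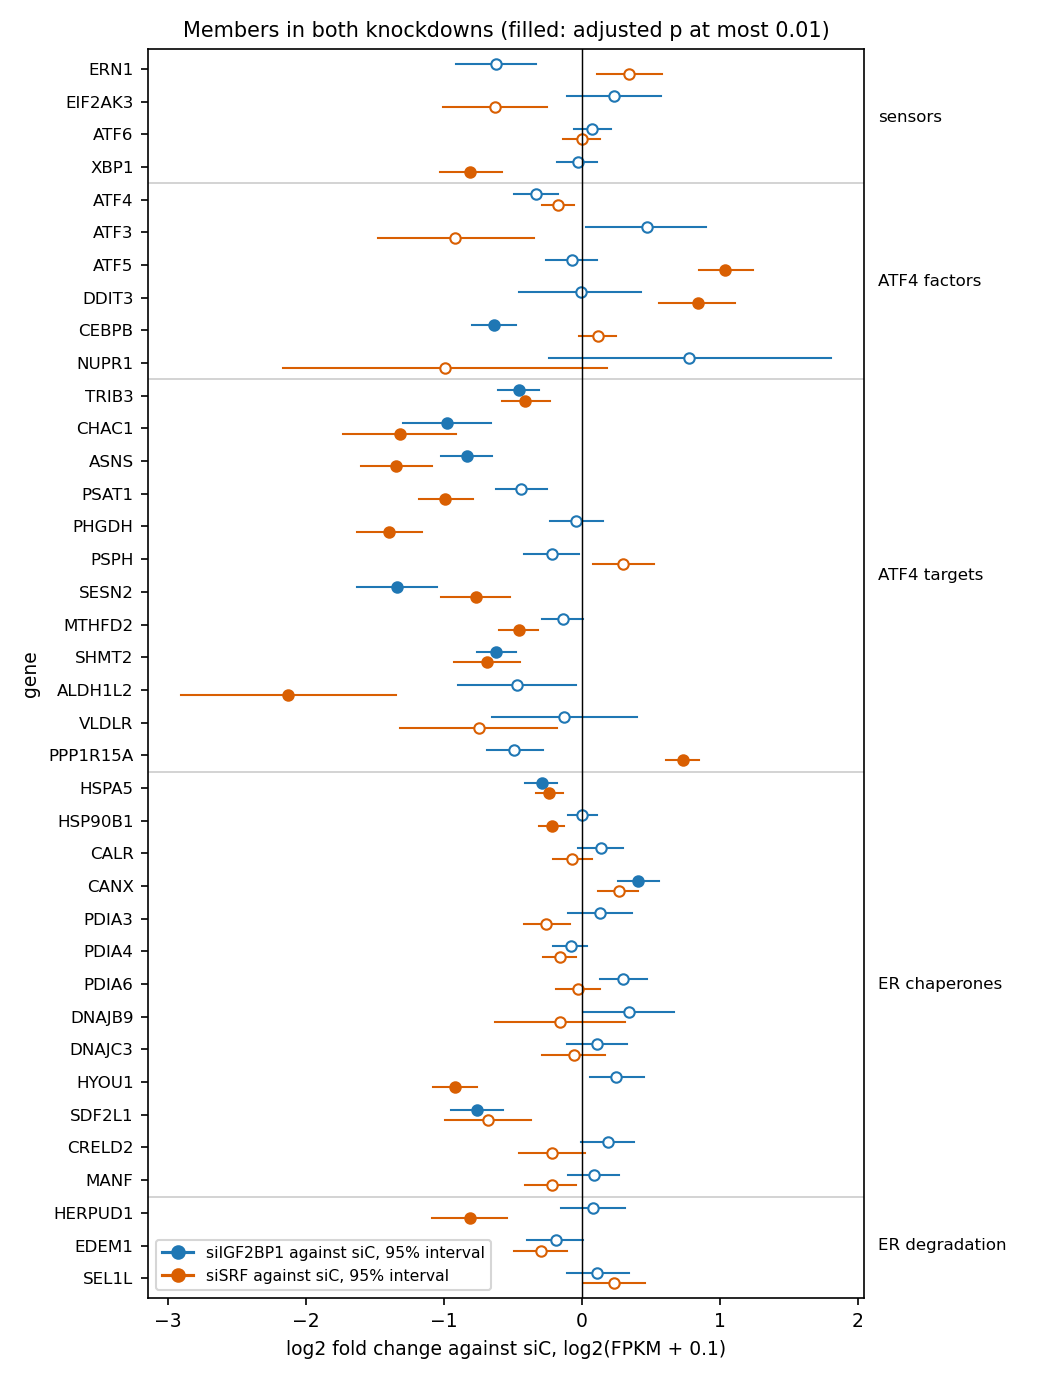
Log2 fold changes of the 38 members against siC on the log2(FPKM + 0.1) scale, with siIGF2BP1 in blue and siSRF in orange. Points are estimates from 3 libraries per group, lines are 95% confidence intervals, and filled points were called. Most ATF4 targets lie left of 0 in both knockdowns, while PPP1R15A, ATF5 and DDIT3 lie right of 0 in siSRF.

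The ATF4 factors did not move together. The transcript of ATF4 itself, the central activator, was abundant at 88.3, 91.0 and 97.7 FPKM in siC, 75.7, 67.6 and 76.8 FPKM in siIGF2BP1 and 81.0, 83.3 and 81.5 FPKM in siSRF. Every library of both knockdowns lay below every siC library, but the log2 fold changes of -0.33 ± 0.07 (adjusted p = 0.0204) in siIGF2BP1 and -0.17 ± 0.05 (adjusted p = 0.0462) in siSRF missed the threshold. With limma-voom ATF4 was called lower in siIGF2BP1, at -0.33 (adjusted p = 0.000181, and 0.000181 to 0.0601 over all alternatives), and not in siSRF, at -0.17 (adjusted p = 0.0228, and 0.02 to 0.91 over all alternatives), and the siIGF2BP1 call was also gained with all 9 libraries in a single fit. After removal of GC and length trends the log2 fold change of ATF4 was -0.25 in siIGF2BP1 and -0.01 in siSRF, so the difference in siSRF was near 0 under that setting. CEBPB, a C/EBP-family partner of ATF4, stood at 16.8, 18.1 and 18.9 FPKM in siC, 11.1, 11.2 and 12.1 FPKM in siIGF2BP1 and 19.5, 19.7 and 19.1 FPKM in siSRF. The siIGF2BP1 libraries lay below all others, with a log2 fold change of -0.64 ± 0.07 (adjusted p = 0.00219), and CEBPB was not called in siSRF, where its log2 fold change was 0.12 ± 0.06 (adjusted p = 0.202). Over all alternatives that value ran from 0.07 to 0.35, the highest after removal of GC and length trends, and its adjusted p was 0.0109 or more, close to the threshold at its lowest. The direct comparison of siIGF2BP1 with siSRF gave -0.76 ± 0.05 (adjusted p = 0.000139). The call of CEBPB in siIGF2BP1 was lost without siC replicate 2, siIGF2BP1 replicate 1 or siIGF2BP1 replicate 2, with log2 fold changes of -0.69 to -0.60 over the 6 libraries left out in turn. After removal of GC and length trends the siIGF2BP1 log2 fold change of CEBPB was smaller, at -0.44, and the call was kept.

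ATF5 and DDIT3 were called higher in siSRF alone, and the difference from siIGF2BP1 was called for both. ATF5, a relative of ATF4 with a similar control of its translation, stood at 5.64, 5.68 and 5.66 FPKM in siC, 5.08, 5.75 and 5.32 FPKM in siIGF2BP1 and 11.5, 13.0 and 10.8 FPKM in siSRF. The siSRF libraries were all above the other 6, which overlapped, and the log2 fold change in siSRF was 1.04 ± 0.08 (adjusted p = 0.000614), a call that held whichever library was left out. In siIGF2BP1 it was -0.07 ± 0.08 (adjusted p = 0.572), and siIGF2BP1 against siSRF gave -1.12 ± 0.09 (adjusted p = 0.000258). DDIT3, which encodes the pro-apoptotic factor CHOP, stood at 4.79, 6.16 and 5.90 FPKM in siC, 5.87, 6.71 and 4.29 FPKM in siIGF2BP1 and 9.85, 10.9 and 9.43 FPKM in siSRF. Here too only the siSRF libraries stood apart, with 0.84 ± 0.11 (adjusted p = 0.00375) in siSRF, -0.01 ± 0.18 (adjusted p = 0.98) in siIGF2BP1 and -0.85 ± 0.17 (adjusted p = 0.00976) between the knockdowns. The siSRF call of DDIT3 was lost on leaving out siC replicate 3 or each siSRF library, with log2 fold changes of 0.73 to 0.91. Exons of DDIT3 overlap those of MARS1 and MBD6 on the other strand, and those of ATF5 overlap NUP62 and IL4I1. Of the 38 members 17 have a gene on the other strand over an exon, among them the called CEBPB, SHMT2, MTHFD2, ALDH1L2, HYOU1, HSP90B1 and CANX. The library kit was a directional one, which keeps the strand of the RNA, but whether strand was used in counting is not given in the sources used here, so reads of such pairs may not be fully separated. A gene on the same strand lies over an exon of 6 members, namely DDIT3, ATF5, NUPR1, ASNS, HSP90B1 and CANX, and strand cannot separate reads there.

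ATF3, a stress-induced factor, and NUPR1, a stress-response regulator, were called in neither knockdown by limma, while limma-voom called ATF3 lower in siSRF. ATF3, PSPH, ERN1, EIF2AK3, CALR, MANF and PDIA6 are described after their values were seen. ATF3 stood at 1.09, 0.983 and 1.06 FPKM in siC, 1.71, 1.32 and 1.43 FPKM in siIGF2BP1 and 0.624, 0.434 and 0.470 FPKM in siSRF, with the siIGF2BP1 libraries highest and the siSRF libraries lowest. Its log2 fold changes were 0.47 ± 0.18 (adjusted p = 0.142) and -0.92 ± 0.23 (adjusted p = 0.0337), and the direct comparison of the knockdowns was called at 1.39 ± 0.23 (adjusted p = 0.00482). NUPR1 was near the detection limit, with 4 to 12 reads per library in siC, 11 to 21 in siIGF2BP1 and 1 to 2 in siSRF, and its intervals of -0.24 to 1.81 and -2.17 to 0.18 spanned 0.

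All 12 log2 fold changes of the ATF4 targets were below 0 in siIGF2BP1, against 10827 of 22292 over all genes tested. Of the 12, 5 were called lower, against 5.50% of genes averaging 1 FPKM or more. Their median was -0.46 against 0.02 over all genes tested. In siSRF 9 were called lower and PPP1R15A was called higher, against 7.98% and 10.5% of such genes, with a median of -0.76 against 0.01. With the replicate block no target was called in siIGF2BP1, and PHGDH and PPP1R15A alone in siSRF. Their range ran from -1.34 for SESN2 to -0.04 for PHGDH in siIGF2BP1 and from -2.13 for ALDH1L2 to 0.73 for PPP1R15A in siSRF. Related lists did not share the single direction in siIGF2BP1. Of the 6 ATF4 factors, 4 lay below 0 and 2 above. Of 12 other ATF4 and CHOP targets tested, 6 lay below 0 and 6 above, with a median of 0.02.

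Among enzymes of asparagine and serine synthesis, ASNS was called lower in both knockdowns and PHGDH and PSAT1 in siSRF. ASNS, which makes asparagine, stood at 13.1, 11.6 and 12.1 FPKM in siC, 7.32, 6.80 and 6.44 FPKM in siIGF2BP1 and 4.31, 5.49 and 4.57 FPKM in siSRF. The groups did not overlap, with siC highest and siSRF lowest, and the log2 fold changes were -0.83 ± 0.08 (adjusted p = 0.00148) in siIGF2BP1 and -1.35 ± 0.11 (adjusted p = 0.000664) in siSRF. Both calls held whichever library was left out, while the direct difference between the knockdowns, 0.51 ± 0.11 (adjusted p = 0.0131), missed the threshold. PHGDH, which opens serine synthesis from a glycolytic intermediate, stood at 48.0, 54.1 and 48.2 FPKM in siC, 52.4, 44.5 and 49.6 FPKM in siIGF2BP1 and 16.6, 20.9 and 19.6 FPKM in siSRF. Only the siSRF libraries were low, with -1.40 ± 0.10 (adjusted p = 0.000495) in siSRF, -0.04 ± 0.08 (adjusted p = 0.8) in siIGF2BP1 and 1.36 ± 0.10 (adjusted p = 0.000205) between the knockdowns. PSAT1, the next enzyme of the serine path, stood at 70.0, 72.0 and 82.9 FPKM in siC, 54.5, 52.7 and 58.6 FPKM in siIGF2BP1 and 40, 38 and 35 FPKM in siSRF. Its groups were stepped from siC through siIGF2BP1 to siSRF without overlap, with -0.99 ± 0.08 (adjusted p = 0.000712) in siSRF, -0.44 ± 0.08 (adjusted p = 0.0133) in siIGF2BP1, which missed the threshold, and 0.55 ± 0.06 (adjusted p = 0.00103) between the knockdowns. The siIGF2BP1 value of PSAT1 was called under 5 alternatives, namely limma-voom, at -0.44 (adjusted p = 1.56e-05, and 1.56e-05 to 0.0515 over all alternatives), a minimum mean of 1 FPKM, median-ratio scaling, all 9 libraries in a single fit and removal of GC and length trends. The siSRF calls of PHGDH and PSAT1 held whichever library was left out. PSPH, which completes serine, was not called in either knockdown, with -0.22 ± 0.08 (adjusted p = 0.139) in siIGF2BP1 and 0.30 ± 0.09 (adjusted p = 0.0613) in siSRF, and was called lower in siIGF2BP1 than in siSRF at -0.52 ± 0.06 (adjusted p = 0.00127). A pseudogene closely resembles PSPH, so its reads are less certain.

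**Figure D2:**
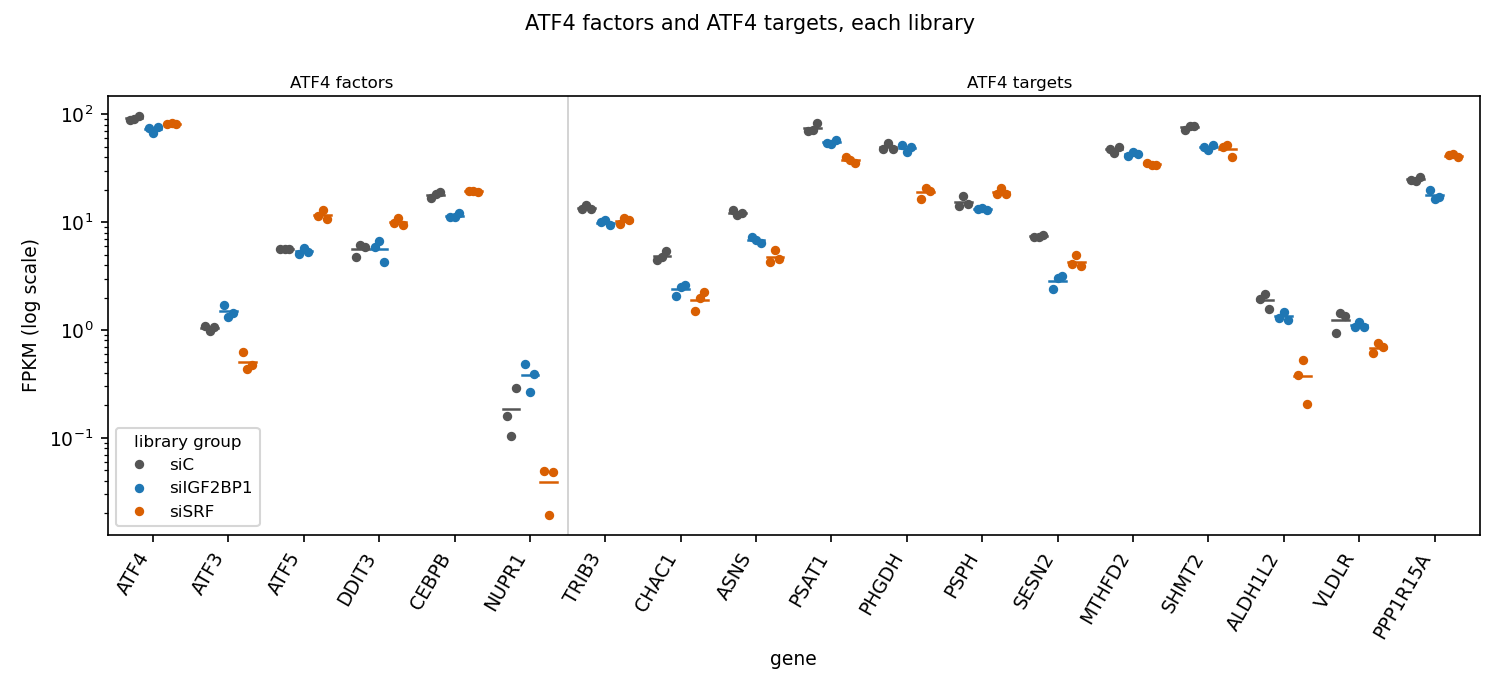
FPKM on a log scale of the 6 ATF4 factors and 12 ATF4 targets, with 3 libraries per group as points and the group mean as a bar. ASNS falls from a mean of 12.3 FPKM in siC to 6.85 FPKM in siIGF2BP1 and 4.79 FPKM in siSRF, while PPP1R15A is highest in siSRF.

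Of the mitochondrial folate enzymes, SHMT2 was called lower in both knockdowns and MTHFD2 and ALDH1L2 in siSRF. SHMT2, which splits serine to feed mitochondrial folate, stood at 72.3, 78.1 and 78.5 FPKM in siC, 49.5, 47.2 and 52.3 FPKM in siIGF2BP1 and 49.9, 52.2 and 40.7 FPKM in siSRF. Both knockdowns lay below siC and overlapped with each other, with -0.62 ± 0.06 (adjusted p = 0.00142) in siIGF2BP1 and -0.69 ± 0.10 (adjusted p = 0.00454) in siSRF. The siIGF2BP1 call of SHMT2 held whichever library was left out, and the siSRF call was lost on leaving out each siC library, siSRF replicate 1 or siSRF replicate 2, with log2 fold changes of -0.76 to -0.58, or after removal of GC and length trends, at -0.50. MTHFD2, which follows in the same path, stood at 48.2, 43.9 and 50.3 FPKM in siC, 41.2, 44.4 and 43.2 FPKM in siIGF2BP1 and 35.4, 34.1 and 33.7 FPKM in siSRF. The siSRF libraries were lowest without overlap, with -0.46 ± 0.06 (adjusted p = 0.00291) in siSRF and -0.14 ± 0.06 (adjusted p = 0.187) in siIGF2BP1, and the knockdowns differed by 0.32 ± 0.04 (adjusted p = 0.00199). The siSRF call of MTHFD2 was lost on leaving out siC replicate 1 or each siSRF library, with log2 fold changes of -0.52 to -0.42. ALDH1L2, a mitochondrial folate dehydrogenase, was low at 1.94, 2.16 and 1.58 FPKM in siC, 1.29, 1.48 and 1.24 FPKM in siIGF2BP1 and 0.379, 0.529 and 0.207 FPKM in siSRF, which rested on 13 to 41 reads per library in siSRF. Its groups were stepped without overlap, with -2.13 ± 0.32 (adjusted p = 0.00543) in siSRF, -0.47 ± 0.18 (adjusted p = 0.142) in siIGF2BP1 and 1.66 ± 0.32 (adjusted p = 0.00965) between the knockdowns. The siSRF call of ALDH1L2 was lost whichever of the 6 libraries was left out, at adjusted p of 0.011 to 0.025 and log2 fold changes of -2.37 to -1.85. With a pseudocount of 1 FPKM in place of 0.1 its log2 fold change in siSRF was -1.08, and over all alternatives it ran from -2.40 to -1.08.

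Among feedback and growth-control targets, SESN2 was called lower in both knockdowns and PPP1R15A higher in siSRF. SESN2, which restrains mTORC1 when leucine is scarce, stood at 7.24, 7.33 and 7.65 FPKM in siC, 2.4, 3.1 and 3.2 FPKM in siIGF2BP1 and 4.14, 4.92 and 3.89 FPKM in siSRF. The siIGF2BP1 libraries were lowest and siC highest without overlap, with -1.34 ± 0.12 (adjusted p = 0.00129) in siIGF2BP1 and -0.77 ± 0.10 (adjusted p = 0.00336) in siSRF, and the direct difference of -0.57 ± 0.15 (adjusted p = 0.0267) missed the threshold. The siIGF2BP1 call of SESN2 held whichever library was left out, and the siSRF call was lost on leaving out each siC library, siSRF replicate 1 or siSRF replicate 3, with log2 fold changes of -0.87 to -0.70, or after removal of GC and length trends, at -0.56. PPP1R15A, which encodes GADD34 and brings the phosphatase that reverses eIF2 phosphorylation, stood at 24.6, 24.4 and 26.2 FPKM in siC, 20.1, 16.3 and 17.3 FPKM in siIGF2BP1 and 42.1, 43.0 and 39.9 FPKM in siSRF. The siSRF libraries were highest and the siIGF2BP1 libraries lowest without overlap, with 0.73 ± 0.05 (adjusted p = 0.000458) in siSRF, -0.49 ± 0.08 (adjusted p = 0.0121) in siIGF2BP1 and -1.22 ± 0.08 (adjusted p = 0.000141) between the knockdowns. The siSRF call held whichever library was left out, and the lower siIGF2BP1 level of PPP1R15A was called under 5 alternatives, namely limma-voom, at -0.49 (adjusted p = 3.59e-05, and 3.59e-05 to 0.0536 over all alternatives), a minimum mean of 1 FPKM, median-ratio scaling, all 9 libraries in a single fit and leaving out siIGF2BP1 replicate 1.

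CHAC1, which degrades glutathione, and TRIB3, a pseudokinase that feeds back on ATF4, were called lower in both knockdowns. CHAC1 stood at 4.42, 4.79 and 5.37 FPKM in siC, 2.09, 2.53 and 2.64 FPKM in siIGF2BP1 and 1.5, 2.0 and 2.2 FPKM in siSRF. Both knockdowns lay below siC and overlapped with each other, with -0.98 ± 0.13 (adjusted p = 0.0051) in siIGF2BP1 and -1.32 ± 0.17 (adjusted p = 0.00301) in siSRF. TRIB3 stood at 13.2, 14.5 and 13.4 FPKM in siC, 9.95, 10.4 and 9.49 FPKM in siIGF2BP1 and 9.55, 10.9 and 10.6 FPKM in siSRF. Again both knockdowns lay below siC and overlapped, with -0.46 ± 0.06 (adjusted p = 0.0056) and -0.41 ± 0.07 (adjusted p = 0.00897). The direct difference between the knockdowns missed the threshold for both, at 0.34 ± 0.18 (adjusted p = 0.218) and -0.05 ± 0.07 (adjusted p = 0.597). Both TRIB3 calls were lost whichever of the 6 libraries was left out, with log2 fold changes of -0.49 to -0.42 in siIGF2BP1 and -0.44 to -0.35 in siSRF. They were also lost after removal of GC and length trends, at -0.32 in siIGF2BP1 and -0.18 in siSRF, and the siSRF call of TRIB3 was lost without a filter on low values, at -0.41. The siIGF2BP1 call of CHAC1 was also lost whichever library was left out, at -1.04 to -0.88, and its siSRF call on leaving out each siC library or siSRF replicate 2, at -1.44 to -1.17. VLDLR, a lipoprotein receptor, was called in neither knockdown by limma, with intervals of -0.65 to 0.40 and -1.32 to -0.18, and was called lower in siSRF by limma-voom.

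The promoters of ASNS and CHAC1 are shown because they are the called ATF4 factors and targets whose start region held a searched motif. The motif was the letters TGATGNAA on either strand, the composite element of C/EBP and ATF proteins (CARE), and it was found in 3.62% of 35116 promoters of 300 bases from RefSeq on GRCh38.p14. The 14 ATF4 factors and targets in that table have 23 promoters, of which 3 held it, 1 each of ASNS, CHAC1 and ATF3, and ASNS and ATF3 each also have a promoter without it. The match begins at -68 relative to the start on the ASNS strand and at -209 on the opposite strand of CHAC1, and no other motif overlaps either. ASNS (ENSG00000070669) is printed from chr7:97872359-97872658 on the minus strand and CHAC1 (ENSG00000128965) from chr15:40953221-40953520 on the plus strand, with the match in capitals.
ASNS: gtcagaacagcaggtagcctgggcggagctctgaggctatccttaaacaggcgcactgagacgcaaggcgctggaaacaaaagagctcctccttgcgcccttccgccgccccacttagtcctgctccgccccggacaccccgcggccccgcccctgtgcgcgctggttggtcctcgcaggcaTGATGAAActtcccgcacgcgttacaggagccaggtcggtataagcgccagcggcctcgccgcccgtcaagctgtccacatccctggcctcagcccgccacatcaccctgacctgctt
CHAC1: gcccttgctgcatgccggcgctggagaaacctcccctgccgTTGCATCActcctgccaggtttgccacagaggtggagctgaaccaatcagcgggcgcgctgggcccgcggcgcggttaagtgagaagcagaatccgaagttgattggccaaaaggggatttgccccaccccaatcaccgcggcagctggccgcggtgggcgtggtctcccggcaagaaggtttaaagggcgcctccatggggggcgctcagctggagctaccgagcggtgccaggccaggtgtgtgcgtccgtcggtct

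Of the 4 sensor-arm genes, XBP1 was called lower in siSRF. Their log2 fold changes in siIGF2BP1 ran from -0.62 to 0.23, with none past the threshold. The sensors themselves, ERN1, EIF2AK3 and ATF6, were called in neither knockdown by limma. With limma-voom ERN1 was called in both knockdowns, lower in siIGF2BP1 but higher in siSRF, and EIF2AK3 was called lower in siSRF. XBP1 stood at 30.4, 28.2 and 30.0 FPKM in siC, 28.2, 27.6 and 30.9 FPKM in siIGF2BP1 and 14.8, 16.9 and 18.9 FPKM in siSRF. The siSRF libraries were lowest and the other 6 overlapped, with -0.81 ± 0.09 (adjusted p = 0.00213) in siSRF, -0.03 ± 0.06 (adjusted p = 0.771) in siIGF2BP1 and 0.78 ± 0.10 (adjusted p = 0.00153) between the knockdowns. The siSRF call was lost without siC replicate 1, siC replicate 3 or siSRF replicate 2, with log2 fold changes of -0.89 to -0.72. For ERN1 and EIF2AK3, which encode the sensor kinases, limma called the difference between the knockdowns but neither comparison with siC. ERN1 stood at 2.63, 2.59 and 2.49 FPKM in siC, 1.74, 1.55 and 1.62 FPKM in siIGF2BP1 and 3.10, 3.31 and 3.47 FPKM in siSRF, lowest in siIGF2BP1 and highest in siSRF without overlap, with -0.62 ± 0.12 (adjusted p = 0.0182) and 0.34 ± 0.10 (adjusted p = 0.0495) against siC and -0.97 ± 0.11 (adjusted p = 0.00113) between the knockdowns. EIF2AK3 stood at 2.20, 2.06 and 2.37 FPKM in siC, 3.02, 2.37 and 2.46 FPKM in siIGF2BP1 and 1.19, 1.55 and 1.45 FPKM in siSRF, with siSRF lowest and the lowest siIGF2BP1 library level with the highest siC library, and 0.23 ± 0.14 (adjusted p = 0.342) and -0.63 ± 0.16 (adjusted p = 0.031) against siC and 0.86 ± 0.17 (adjusted p = 0.00915) between the knockdowns. ATF6 overlapped in all groups, with intervals of -0.06 to 0.21 in siIGF2BP1 and -0.14 to 0.13 in siSRF.

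Of the 13 ER chaperones, 2 were called lower and 1 higher in siIGF2BP1, against 5.50% and 5.21% of genes averaging 1 FPKM or more, with a median of 0.13, and 3 were called lower and 0 higher in siSRF, against 7.98% and 10.5%, with a median of -0.22. Such counts are small in a role of 13 genes, and whether they differ from those shares was not tested. With the replicate block HYOU1 in siSRF was the only call left. In siIGF2BP1 10 log2 fold changes lay above 0 and 3 below, and in siSRF 12 lay below 0 and 1 above. Over all genes tested 10827 of 22292 and 10804 of 21857 lay below 0, with medians of 0.02 and 0.01. Several chaperones counted here lay near 0 with intervals spanning it. Among them were HSP90B1 in siIGF2BP1, at 0.00, and PDIA6, DNAJC3 and CALR in siSRF, at -0.03, -0.06 and -0.07. Log2 fold changes ran from -0.76 for SDF2L1 to 0.41 for CANX in siIGF2BP1 and from -0.92 for HYOU1 to 0.27 for CANX in siSRF.

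HSPA5, the chaperone BiP, which binds unfolded proteins and the sensors, stood at 140.3, 142 and 139.8 FPKM in siC, 121, 110.3 and 113 FPKM in siIGF2BP1 and 114, 123 and 121 FPKM in siSRF. Both knockdowns lay below siC and overlapped with each other, with -0.29 ± 0.05 (adjusted p = 0.00974) in siIGF2BP1 and -0.24 ± 0.04 (adjusted p = 0.00886) in siSRF. Both calls were lost whichever of the 6 libraries was left out, with log2 fold changes of -0.33 to -0.26 and -0.26 to -0.20. Both HSPA5 calls were also lost without a filter on low values, at -0.29 and -0.24, and the siIGF2BP1 call with a pseudocount of 0.01, at -0.29, or after removal of GC and length trends, at -0.31. HYOU1, an HSP70-like chaperone and exchange factor of BiP, stood at 27.7, 30.9 and 32.4 FPKM in siC, 35.8, 33.6 and 39.2 FPKM in siIGF2BP1 and 16.0, 15.8 and 16.1 FPKM in siSRF. Here the siSRF libraries were lowest and the siIGF2BP1 libraries highest without overlap, with -0.92 ± 0.06 (adjusted p = 0.0005) in siSRF, 0.25 ± 0.08 (adjusted p = 0.0909) in siIGF2BP1 and 1.17 ± 0.06 (adjusted p = 6.16e-05) between the knockdowns. The siSRF call of HYOU1 held whichever library was left out, and limma-voom also called its higher siIGF2BP1 level, at 0.26 (adjusted p = 0.00338, and 0.00338 to 0.231 over all alternatives). HSP90B1, the ER paralog of HSP90, stood at 166, 163 and 171 FPKM in siC, 161, 169.7 and 171 FPKM in siIGF2BP1 and 143, 145 and 141 FPKM in siSRF. Only the siSRF libraries were low, with -0.22 ± 0.04 (adjusted p = 0.00834), a call lost whichever of the 6 libraries was left out at -0.23 to -0.20 and without a filter on low values at -0.22, and larger at -0.39 after removal of GC and length trends, and the siIGF2BP1 value was 0.00 ± 0.04 (adjusted p = 0.971).

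SDF2L1, which works with ER DNAJ proteins, stood at 35.1, 40.0 and 41.4 FPKM in siC, 22.9, 21.5 and 24.4 FPKM in siIGF2BP1 and 20.4, 24.6 and 28.3 FPKM in siSRF. Both knockdowns lay below siC, with -0.76 ± 0.08 (adjusted p = 0.00225) called in siIGF2BP1 and -0.68 ± 0.13 (adjusted p = 0.0118) in siSRF, which missed the threshold and was called under 4 alternatives, namely limma-voom, at -0.68 (adjusted p = 6.54e-06, and 6.54e-06 to 0.0454 over all alternatives), a minimum mean of 1 FPKM, median-ratio scaling and all 9 libraries in a single fit. Over all alternatives the siSRF log2 fold change of SDF2L1 ran from -0.79 to -0.45. The siIGF2BP1 call of SDF2L1 was lost whichever library was left out except siC replicate 1, with log2 fold changes of -0.83 to -0.71. CANX, the membrane lectin calnexin, was the chaperone called higher and stood at 236, 225 and 259 FPKM in siC, 309, 321 and 328 FPKM in siIGF2BP1 and 293, 293 and 280.2 FPKM in siSRF. Every library of both knockdowns lay above siC, with 0.41 ± 0.06 (adjusted p = 0.00804) in siIGF2BP1 and 0.27 ± 0.06 (adjusted p = 0.0223) in siSRF, and the siIGF2BP1 call was lost whichever library was left out except siC replicate 3, with log2 fold changes of 0.37 to 0.47, and without a filter on low values, at 0.41. In siSRF limma-voom called CANX higher, at 0.27 (adjusted p = 1.36e-06, and 1.36e-06 to 0.0847 over all alternatives), as did all 9 libraries in a single fit, and its value was 0.12 after removal of GC and length trends. CALR, PDIA3, PDIA4, PDIA6, DNAJB9, DNAJC3, CRELD2 and MANF were called in neither knockdown by limma, with log2 fold changes from -0.08 to 0.34 in siIGF2BP1 and from -0.26 to -0.03 in siSRF. Of these, limma-voom called PDIA6 higher in siIGF2BP1 and PDIA3 lower in siSRF. The lectin chaperone CALR was the most abundant member, at 384 ± 23.4 FPKM (SD, n = 3) in siC.

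**Figure D3:**
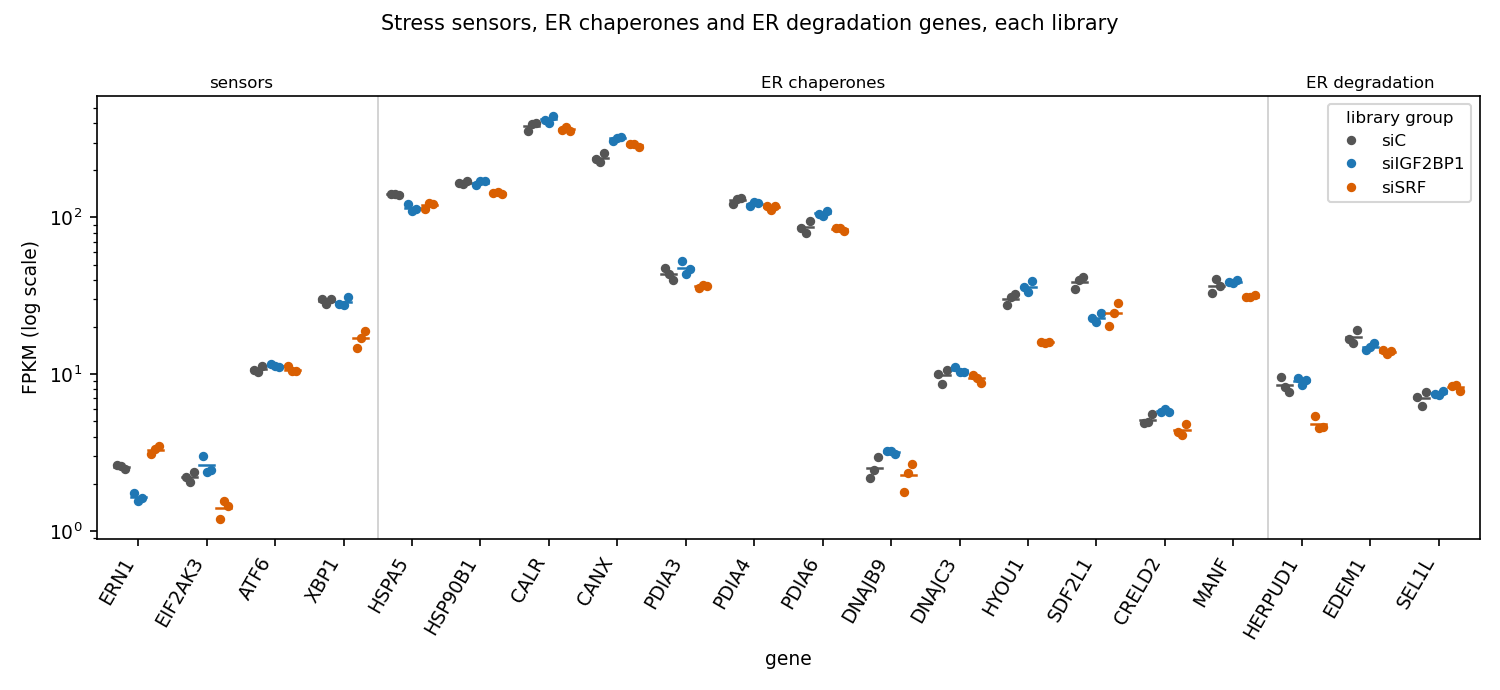
FPKM on a log scale of the 4 sensor-arm genes, 13 ER chaperones and 3 ER degradation genes. Points are 3 libraries per group and bars are group means. XBP1, HYOU1 and HERPUD1 are lowest in siSRF, SDF2L1 lies below siC in both knockdowns, and CANX lies above siC in both.

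Among the genes of ER degradation, HERPUD1, an ER membrane protein of the ubiquitin ligase complex, stood at 9.64, 8.34 and 7.75 FPKM in siC, 9.49, 8.51 and 9.16 FPKM in siIGF2BP1 and 5.41, 4.51 and 4.58 FPKM in siSRF. The siSRF libraries were lowest and the other groups overlapped, with -0.81 ± 0.11 (adjusted p = 0.00409) in siSRF, 0.08 ± 0.10 (adjusted p = 0.622) in siIGF2BP1 and 0.89 ± 0.09 (adjusted p = 0.000698) between the knockdowns. The siSRF call of HERPUD1 was lost without siC replicate 1, siC replicate 2, siSRF replicate 2 or siSRF replicate 3, with log2 fold changes of -0.90 to -0.73. EDEM1, which hands misfolded glycoproteins to degradation, and SEL1L, the partner of the ligase HRD1, were called in neither knockdown by limma, with intervals of -0.40 to 0.01 and -0.11 to 0.34 in siIGF2BP1 and -0.49 to -0.11 and 0.01 to 0.46 in siSRF, and limma-voom called EDEM1 lower in siSRF.

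Start regions of the ER genes were searched for the ER stress response element (ERSE: CCAAT, 9 bases of any kind, CCACG), for its relative ERSE-II (ATTGG, 1 base of any kind, CCACG), for TGACGTGG (UPRE) and for TGATGNAA, on both strands. ERSE was found in 0.0769% of the 35116 promoters, ERSE-II in 0.0541% and UPRE in 0.729%. The 12 ER chaperones in the table have 17 promoters, of which 8 held an ERSE, from 6 genes and with the same CANX match counted in 3 overlapping promoters, 2 an ERSE-II and 1 a UPRE, which in HYOU1 overlaps an ERSE-II. Of the 5 promoters of the sensor-arm genes, 1 of the 2 of XBP1 held an ERSE. HSPA5 and HERPUD1 are shown as a called ER chaperone and the called degradation gene. HSPA5 (ENSG00000044574) is printed from chr9:125241294-125241593 on the minus strand with its ERSE in capitals, beginning at -66, and HERPUD1 (ENSG00000051108) from chr16:56931892-56932191 on the plus strand with TGATGNAA on the opposite strand at -176 and ERSE-II at -117 in capitals, without overlap. A match is a description of letters, not a bound site.
HSPA5: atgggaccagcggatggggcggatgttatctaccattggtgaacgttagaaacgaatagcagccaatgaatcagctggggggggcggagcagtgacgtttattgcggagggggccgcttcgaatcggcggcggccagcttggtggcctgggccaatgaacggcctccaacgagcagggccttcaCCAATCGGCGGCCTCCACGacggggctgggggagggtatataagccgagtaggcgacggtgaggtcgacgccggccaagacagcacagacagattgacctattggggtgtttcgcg
HERPUD1: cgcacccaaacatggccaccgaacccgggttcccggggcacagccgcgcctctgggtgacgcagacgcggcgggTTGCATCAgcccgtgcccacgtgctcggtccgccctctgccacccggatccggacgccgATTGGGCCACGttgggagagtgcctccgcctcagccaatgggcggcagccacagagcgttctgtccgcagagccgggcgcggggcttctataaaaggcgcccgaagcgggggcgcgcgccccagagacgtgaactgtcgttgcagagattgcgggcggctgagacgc

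The knockdowns were also compared directly. Of the 38 members, 12 (31.6%) were called higher in siIGF2BP1 than in siSRF, against 8.82% of 22311 genes, and 6 (15.8%) were called lower, against 11.2%. Well expressed genes were called more often here too. With a minimum mean of 1 FPKM in the fit, 4759 of 14195 genes were called, 57.6% of these lower in siIGF2BP1. Whether the members differ from such genes was not tested. The 12 were HYOU1, PHGDH, HERPUD1, PSAT1, MANF, PDIA6, XBP1, MTHFD2, ATF3, HSP90B1, EIF2AK3 and ALDH1L2, and the 6 were CEBPB, PPP1R15A, ATF5, ERN1, PSPH and DDIT3. MANF, a secreted ER stress protein, and PDIA6, a disulfide isomerase, were called here at 0.31 ± 0.04 (adjusted p = 0.00108) and 0.33 ± 0.04 (adjusted p = 0.00122), and by limma in neither comparison with siC.

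Other genes of the same pathways were grouped into lists by role. Of 153 tested in siIGF2BP1, 29 were called lower and 7 higher, and of 154 tested in siSRF, 31 were called lower and 21 higher. With the replicate block these fell to 1 lower and 1 higher in siIGF2BP1 and 10 lower and 3 higher in siSRF. With each library left out in turn, 9 to 15 were called lower and 3 higher in siIGF2BP1, and 14 to 21 lower and 7 to 18 higher in siSRF, so many of the calls of single genes named from these lists depend on the libraries and the model. The counts of each list stand against the shares called among genes averaging 1 FPKM or more. These were 5.50% lower and 5.21% higher in siIGF2BP1 and 7.98% and 10.5% in siSRF. A few calls in a list of under 20 genes say little, and differences from those shares were not tested. Amino acid transport and synthesis held 17 genes, of which 9 were called lower in siIGF2BP1 and 10 in siSRF, with medians of -0.49 and -0.58. PCK2, a mitochondrial enzyme of gluconeogenesis, had log2 fold changes of -0.91 and -1.41, and SLC7A5, a leucine transporter, -1.23 and -0.88. SLC3A2, the heavy chain paired with SLC7A5, was called lower in siIGF2BP1 at -0.61, and SLC1A4, a neutral amino acid transporter, was called lower in siSRF at -1.60. Of 20 tRNA synthetases, 2 were called lower in siIGF2BP1, namely HARS at -0.39 and FARSA at -0.70, while in siSRF 7 were called lower and 5 higher. AARS, GARS and MARS had the smallest p there, at -0.89, -0.57 and -0.52, and HARS was among those called higher, at 0.47. Among 12 tested of 16 other ATF4 and CHOP targets, EIF4EBP1 and ERO1A were called lower in siIGF2BP1 and the secreted glycoprotein gene STC2 higher, at -0.65, -0.44 and 1.18. In siSRF VEGFA and STC2 were called lower, at -0.78 and -0.42, and the apoptosis genes PMAIP1 and TNFRSF10B higher, at 0.80 and 0.52. Of 8 folate genes MTHFD1L was called lower in both knockdowns, at -0.41 and -0.51, and TYMS in siSRF, at -0.31. The 13 genes for eIF2 kinases, eIF2, its phosphatase and eIF2B had log2 fold changes from -0.39 to 0.22 in siIGF2BP1, with a median of -0.13, and in siSRF the eIF2B subunit EIF2B4 and the eIF2 subunit EIF2S1 were called higher, at 0.78 and 0.65.

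The remaining ER lists had calls in both directions. Of 19 other ER folding enzymes, P4HB, a disulfide isomerase, was called lower in both knockdowns at -0.39 and -0.77, DNAJC1 was called higher in siIGF2BP1 at 0.47, and SERP1 and DNAJC10 higher in siSRF at 0.46 and 0.47. The 15 tested genes of other ER degradation ranged from -0.38 to 0.31 in siIGF2BP1, and in siSRF 3 were called lower, with DERL1 at -0.45, and 2 higher, AUP1 and DERL2, at 0.41 and 0.39. Of 17 genes of ER translocation and export, 3 were called lower and 3 higher in siIGF2BP1 and 2 lower and 3 higher in siSRF. SSR3, a subunit of the translocon-associated complex, was called lower in siIGF2BP1 at -0.85 and higher in siSRF at 0.64, and SRPRA, a subunit of the signal recognition particle receptor, was called lower in siSRF at -1.73. SSR1 was called higher in both knockdowns, at 0.40 and 0.28, SPCS3 lower in both, at -0.54 and -0.72, and SEC31A higher in siIGF2BP1, at 0.55. Among other ER stress transcription genes, 1 of 8 tested was called lower and 2 higher in siIGF2BP1, and 2 of 9 lower and 1 higher in siSRF. CREB3L1, a membrane-bound transcription factor, was called higher in siIGF2BP1 at 1.70 and lower in siSRF at -0.70, and MBTPS1, the protease that cleaves ATF6, was called higher in siIGF2BP1 at 0.57. CREB3L2, a relative of CREB3L1, was called lower in siIGF2BP1 at -0.41, and in siSRF CREB3L4 was called lower at -0.98 and RTCB, the ligase that joins the spliced XBP1 mRNA, higher at 0.35.

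Of 14 cytosolic heat shock genes, 5 were called lower in siIGF2BP1, with a median of -0.29 and STIP1, DNAJA1 and HSPH1 at -0.68, -0.57 and -0.52, while in siSRF BAG3 was called lower at -0.48 and CHORDC1 higher at 0.64, with a median of 0.17. Of 10 mitochondrial chaperones and proteases, 5 were called lower in siIGF2BP1, with a median of -0.48 and HSPD1, the mitochondrial chaperonin, at -0.93, HSPA9 at -0.47 and GRPEL1 at -0.82, and 2 were called higher in siSRF, with HSPA9 at 0.48 and HTRA2 at 0.36. HSPD1 stood at 214, 209 and 204 FPKM in siC, 111, 108 and 111 FPKM in siIGF2BP1 and 227, 227 and 232 FPKM in siSRF, with the siIGF2BP1 libraries below all others.

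**Figure D4:**
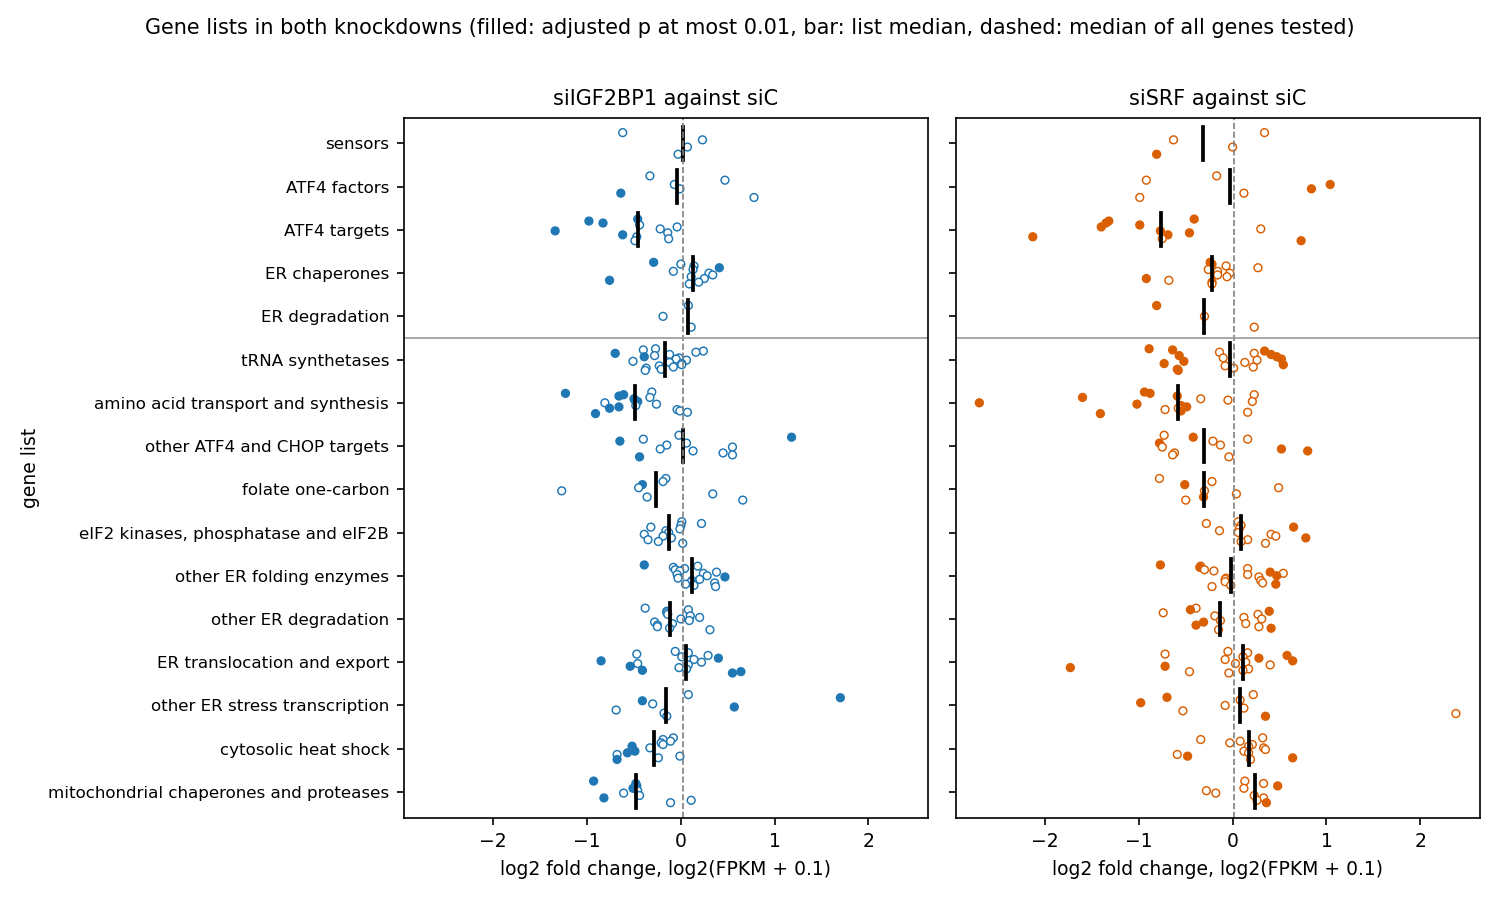
Log2 fold changes against siC on the log2(FPKM + 0.1) scale for the 5 roles of members and 11 further gene lists, with each tested gene as a circle that is filled where called. Bars are list medians and the dashed line is the median of all genes tested. Amino acid transport and synthesis has medians of -0.49 in siIGF2BP1 and -0.58 in siSRF, and the ATF4 targets have -0.46 and -0.76.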

How the data were processed

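RNA-seq of ES-2 cells was analysed from the gene-level FPKM that the authors deposited, with 3 libraries each of siC, siIGF2BP1 and siSRF. The authors trimmed reads with cutadapt 1.14, aligned them with HISAT2 2.1.0 and SAMtools 1.5 to hg38, counted them with featureCounts 1.5.3 on Ensembl genes and scaled libraries by TMM factors in edgeR 3.18.1. The deposited tables also hold gene length in bases and the authors' comparison columns of log fold change, p and FDR, and the latter were not used. Dividing FPKM by the worth of 1 read gave whole reads for 100.0% of values, within 0.01 of a read, and between 6421764 and 9416175 reads on genes per library, so low genes carry the larger counting error.

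Genes averaging 0.1 FPKM or more in the 6 libraries of a comparison were fitted on log2(FPKM + 0.1) with limma 3.58.1 (lmFit, eBayes with trend) in R 4.3.3, with p-values adjusted by Benjamini-Hochberg over all genes tested. Tested on simulated data, the fit missed more of the changes put in and made more false calls than limma-voom. A gene not called may thus still have changed. The simulation gave every gene the same spread between libraries beyond counting error, so its error rates need not hold for these data. Calls of genes with very few reads are less certain. limma-voom, run as an alternative, called 3805 genes in siIGF2BP1 where this fit called 1588. Other alternatives were pseudocounts of 1 and 0.01, no filter or a minimum mean of 1 FPKM, median-ratio scaling, all 9 libraries in a single fit, the replicate number as a block, trends along GC content and gene length taken out, a threshold of 0.05 and each library left out in turn.

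Members and gene lists were chosen with earlier results of these data known. Library values are given for each member called in either knockdown or with an absolute log2 fold change of at least 1, and for ATF4, DDIT3, XBP1 and HSPA5. NUPR1 and the other members are given by range and counts, and up to 3 called genes per knockdown with the smallest p are named from each pathway list. Other members described in full, VIM, KRT7 and HSPD1 were singled out after their values were seen. Promoters of 300 bases came from RefSeq on GRCh38.p14, and 33 of 38 members matched. Tables and figures used Python 3.11.15, pandas 2.3.3, numpy 2.4.6 and matplotlib 3.10.9.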

Additional observations from a re-analysis of the deposited data

How the results depend on the processing

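Called members kept their direction under all alternatives run. Over the settings other than leaving out a library, the 9 members called in siIGF2BP1 kept their call in 67 of 81 values and the 17 called in siSRF in 134 of 153. With a library left out, 31 of 54 and 53 of 102 calls were lost, with fewer libraries in the fit. Depth limits low genes most, such as NUPR1.

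With limma-voom 3805 genes were called in siIGF2BP1, 5123 in siSRF and 6912 between the knockdowns, with 3 and 5 members called higher. Pathway genes called lower and higher in siIGF2BP1 then numbered 57 and 17, and 40 were called higher in siSRF. With all 9 libraries in a single fit 2481 genes were called in siIGF2BP1 and 32 pathway genes were called higher in siSRF. Without a filter on low values 0 members were called higher in siIGF2BP1 by limma. limma-voom was not run without the filter. At an adjusted p of at most 0.05, 3596, 5205 and 7132 genes were called in siIGF2BP1, siSRF and between the knockdowns, 2 and 5 members were called higher, 49 and 13 pathway genes were called lower and higher in siIGF2BP1, and 38 were called higher in siSRF. The causes were not tested.

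With the replicate number as a block most calls were lost: 91, 501 and 2075 genes were called in siIGF2BP1, siSRF and between the knockdowns, 0 and 2 members were called lower in siIGF2BP1 and siSRF, and 0 and 2 were called higher, against 14 lower and 3 higher in siSRF without the block. Pathway genes called lower numbered 1 and 10 and those called higher 1 and 3. Deviations from the group means of libraries with the same replicate number had correlations across 14168 genes between -0.0438 and 0.0186. A correlation over all these genes could miss pairing that affects only some of them. Nothing states whether the replicate numbers mark a shared culture. The block also costs degrees of freedom, and why calls were lost with it was not tested.

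With each library left out in turn, genes called ranged from 436 to 738 in siIGF2BP1, 946 to 1796 in siSRF and 2885 to 3358 between the knockdowns. Members called lower ranged from 3 to 5 and from 4 to 7, and members called higher from 0 to 1 and from 2 to 3. Pathway genes called lower ranged from 9 to 15 and from 14 to 21, and those called higher were 3 in every case in siIGF2BP1 and 7 to 18 in siSRF.

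With GC content and length taken out, 7 and 11 members were called lower in siIGF2BP1 and siSRF and 1 and 3 higher. Signs changed for members not called in siIGF2BP1. ATF5 had a log2 fold change of 0.04 with GC content and length taken out. DDIT3 had 0.06 without siC replicate 2, 0.03 without siC replicate 3 and 0.17 without siIGF2BP1 replicate 3, with the lowest value, -0.15, without siIGF2BP1 replicate 2. PHGDH had 0.02 without siC replicate 2 and 0.03 without siIGF2BP1 replicate 2, with the lowest value, -0.09, without siIGF2BP1 replicate 1.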
